A study of Mus musculus with 2 samples.

Results

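Collagens and a set of other extracellular matrix proteins were examined in long-read RNA sequencing of the mouse adrenal gland. Members were all annotated genes whose symbol names a collagen chain (Col, a type number, the letter a and a chain number) together with Sparc, Fn1, Mgp, Dcn, Lum, Bgn, Fbn1, Eln, Postn, Timp2 and Timp3. The annotation holds 55 such genes, 44 of them collagens, and 49 had reads in at least 1 library, of 18179 annotated genes with reads. A total of 41 members had reads in both libraries and 8 in 1 library, and 6 collagens (Col2a1, Col6a4, Col9a1, Col9a2, Col9a3 and Col24a1) had 0 reads in both. The choice went by names and not by a measured value, although earlier results of these data were known when it was made.

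The study holds 2 libraries from adrenal glands of female mice aged 10 days, of the strain B6CASTF1/J, which is the F1 cross of C57BL/6J and CAST. They form 1 group of 2 biological replicates with no treatment, no other genotype and no other age, so every test below compares the reads of 2 libraries and not conditions, and its p-value measures counting error between those libraries. The sample texts do not settle whether 1 or 2 animals gave the tissue. Each read is assigned to a transcript model, and a gene's level is the sum over its models, given as CPM (counts scaled to the library's total without spike-ins).

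Matrix collagens are trimers whose chains repeat the triplet glycine-X-Y, with glycine at every turn of the triple helix. Fibrillar collagens form the fibres of connective tissue, type IV collagen forms the sheet of basement membranes, and type VI forms beaded microfilaments beside both. Small proteoglycans and fibril-associated collagens sit on the fibres, elastin and fibrillin form elastic fibres, matricellular proteins such as Sparc modulate contacts between cells and matrix, and TIMPs inhibit the metalloproteinases that cut it. In the adrenal gland this matrix makes up the capsule and the thin sleeves around the cortical cords and the many sinusoidal capillaries.

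The repeat is visible in the exons of the fibrillar chains. The longest unbroken run of glycine-X-Y codons held 344 triplets in Col3a1, 338 in Col1a1 and 339 in Col1a2. It held 87 in Col6a1, 66 in Col4a2, where the repeat is cut into 24 runs, and 40 in Col4a1, where it is cut into 22. Exons of 54 bases encode whole triplets, and consecutive ones of the 3 most abundant fibrillar chains are shown because the repeat can be read in them. Sequences are from GENCODE M21 transcripts (mm10), and capitals mark glycine codons (GGN) in frame.
Col3a1 exon 6, chr1:45325360-45325413, + strand: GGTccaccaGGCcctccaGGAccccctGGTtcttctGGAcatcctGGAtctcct
Col3a1 exon 7, chr1:45325805-45325858, + strand: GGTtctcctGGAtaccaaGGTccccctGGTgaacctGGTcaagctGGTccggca
Col1a1 exon 8, chr11:94939904-94939957, + strand: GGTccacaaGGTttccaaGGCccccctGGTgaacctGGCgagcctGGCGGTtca
Col1a1 exon 9, chr11:94940118-94940171, + strand: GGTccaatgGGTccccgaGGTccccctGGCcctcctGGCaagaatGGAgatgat
Col1a2 exon 8, chr6:4515481-4515534, + strand: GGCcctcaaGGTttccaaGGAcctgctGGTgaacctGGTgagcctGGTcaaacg
Col1a2 exon 9, chr6:4515629-4515682, + strand: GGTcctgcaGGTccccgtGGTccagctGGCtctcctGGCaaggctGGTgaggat
Each exon starts with a glycine codon and ends on a triplet, so that the exons can follow one another without breaking the repeat. Of the internal coding exons, 43 of 49 in Col3a1, 43 of 49 in Col1a1 and 45 of 50 in Col1a2 were multiples of 9 bases. Among the 624 internal exons of members that are present in every annotated transcript and were covered by at least 20 informative reads, 64.6% were multiples of 9, against 13.2% of 46691 such exons over all genes. The members held 169 of the 350 exons of exactly 54 bases in that set.

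Replicate 1 held 606677 reads and replicate 2 held 788654, of which 593058 and 772037 remained without the ERCC spike-ins. Finding 0 reads of a gene allows a level of up to 5.06 and 3.89 CPM (3 counts of each total). These limits and the intervals below cover counting error only. Tissue markers were present in both libraries: all 9 steroidogenic genes (10467 and 16777 reads) and all 6 chromaffin genes (3188 and 4677 reads) had reads. Marker lists of other tissues differed between the libraries. The fat list was the largest of these, with 9011 reads in replicate 1 and 15227 in replicate 2 (15194 and 19723 CPM). The liver list took 4804 reads in replicate 1 and 1007 in replicate 2, and skeletal muscle took 6405 and 2928. All 10 kidney genes were at 0 in replicate 1 against 526 reads in replicate 2. The chondrocyte and bone list had 2 and 62 reads, with the chondrocyte genes Acan, Sox9, Matn1, Matn3 and Comp at 0 in both and Bglap, the osteocalcin gene, at 2 and 58.

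**Figure D1:**
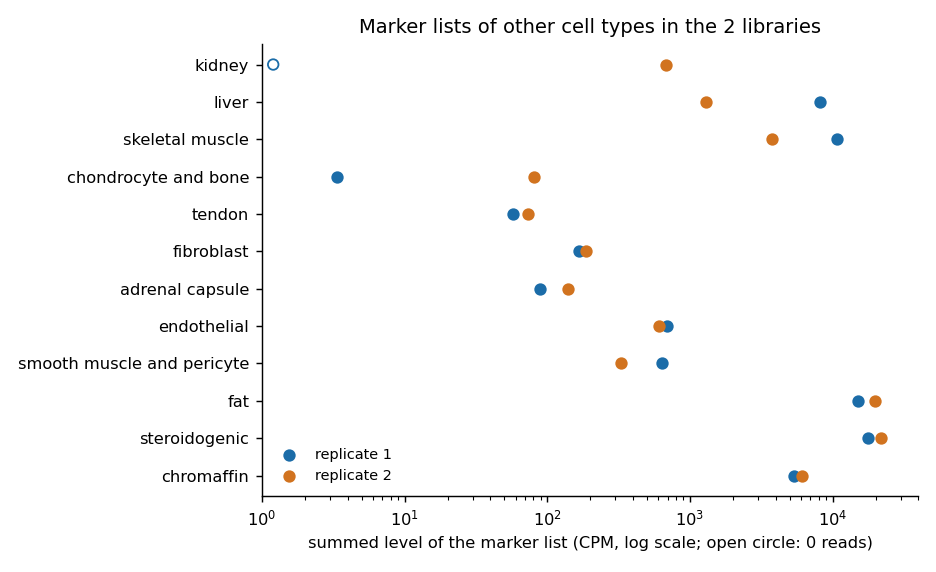
Summed level of each marker list in the 2 libraries, in CPM on a log scale, with 1 point per library and an open circle for a list with 0 reads. The kidney list lies at 0 in replicate 1, the liver and skeletal muscle lists lie higher in replicate 1, and the chondrocyte and bone list lies higher in replicate 2.

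Matrix-producing and vascular cell types were represented in both. The fibroblast list had 99 reads in replicate 1 and 144 in replicate 2 (9 of 9 genes with reads), and the adrenal capsule list had 53 and 108 (4 of 5), with Tcf21 called higher in replicate 2 (16 and 54 reads). The endothelial list had 411 and 466 reads (7 of 7), and the smooth muscle and pericyte list had 378 and 253 (6 of 6), where Des alone gave 269 and 80. In these bulk samples fewer cells of a type and less RNA per cell cannot be told apart.

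The members together took 5498 reads in replicate 1 and 5564 in replicate 2, or 9271 and 7207 CPM (8239 ± 1459 CPM, SD, n = 2), which is 0.927% and 0.721% of the library. The collagens gave 6485 and 4528 CPM of this, and the 11 other genes gave 2786 and 2679 CPM. A few genes carried most of it. Col3a1 ranked 25th of 18179 genes by mean CPM, Sparc 37th, Col1a1 129th, Col4a1 182nd and Col4a2 224th, and the next member, Col1a2, came at rank 656. A total of 21 members, 12 of them collagens, had at least 20 reads in each library, and 28 had fewer in at least 1 library.

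**Figure D2:**
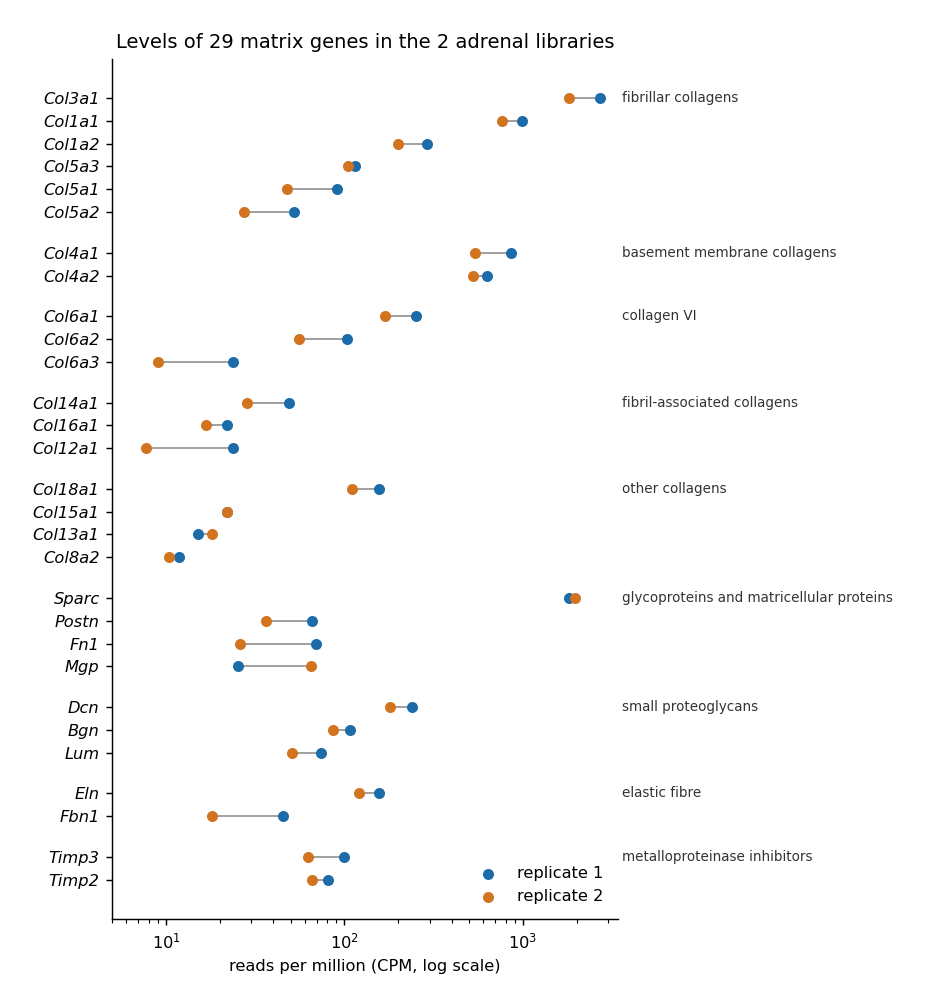
Level of the 29 members with 10 or more reads summed, in CPM on a log scale, with 1 point per library. Members are ordered by group and, within a group, by mean level. Col3a1 and Sparc have the highest mean levels, and all but 4 of the 29 members lie higher in replicate 1.

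By CPM, fibrillar collagens made up the largest group, with 4264 CPM in replicate 1 and 2973 CPM in replicate 2, which is 46.0% and 41.2% of the members' reads. Per kilobase of transcript the order turned, with 29.5% of the summed level for this group and 43.4% for the glycoproteins and matricellular proteins, which hold Sparc. A long read counts once whatever its length, so values per kilobase, here and below, are not numbers of molecules. They are given only as an alternative scale. Col3a1 (chr1:45311538-45349706), the only chain of type III collagen, had 1613 and 1405 reads, or 2720 and 1820 CPM. Col1a1 (chr11:94936224-94953042), the main chain of type I collagen, had 583 and 590 reads (983 and 764 CPM). Its partner chain Col1a2 (chr6:4504814-4541544) had 173 and 154 reads (292 and 199 CPM), below Col1a1 in both libraries. Per kilobase of the reference transcript, mean levels were 408 CPM for Col3a1, 147 for Col1a1 and 45.9 for Col1a2, in the same order. The type V chains, which join type I fibrils and set their width, were lower: Col5a3 at 115 and 105 CPM, Col5a1 at 91.1 and 47.9 CPM, and Col5a2 at 52.3 and 27.2 CPM. Col11a1 and Col11a2, chains best known from cartilage, had 1 and 3 reads and 4 and 1 reads, Col27a1 had 2 and 3, and the cartilage collagen Col2a1 had none.

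Basement membrane collagens gave 1496 CPM in replicate 1 and 1085 CPM in replicate 2. Col4a1 and Col4a2 lie head to head on chromosome 8 and encode the chains of the ubiquitous type IV network. Their annotated ends overlap between positions 11312805 and 11312826. Col4a1 had 507 and 416 reads (855 and 539 CPM) and Col4a2 had 375 and 406 (632 and 526 CPM), with overlapping ranges. Within each library Col4a1 had the higher CPM. Chains of the specialised networks were near 0: Col4a5 had 4 and 5 reads, Col4a4 had 1 and 4, Col4a3 had 0 and 5, and Col4a6 had 0 and 2. Col4a3 and Col4a4 are known from the kidney glomerulus, and the kidney list had 0 reads in replicate 1 and 526 in replicate 2; its part in these low counts was not tested.

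Collagen VI gave 388 and 237 CPM. Col6a1 had 149 and 131 reads (251 and 170 CPM) and Col6a2 had 61 and 43 (103 and 55.7 CPM). Col6a3, whose product joins those 2 chains in the usual trimer, had 14 and 7 reads, Col6a5 had 4 and 2, and Col6a6 had 2 and 0. Collagens of the fibril surface gave 111 and 58.3 CPM, led by Col14a1 with 29 and 22 reads, then Col16a1 with 13 and 13 and Col12a1 with 14 and 6. Among the other collagens, Col18a1, a basement membrane proteoglycan whose C-terminal fragment is endostatin, had 93 and 85 reads (157 and 110 CPM). Its relative Col15a1 had 13 and 17 reads, the transmembrane collagen Col13a1 had 9 and 14, and the short-chain collagen Col8a2 had 7 and 8. The 20 members with fewer than 10 reads summed had at most 5 reads in a library.

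Sparc (chr11:55394500-55423183), a collagen-binding matricellular glycoprotein, had 1081 reads in replicate 1 and 1519 in replicate 2, or 1823 and 1968 CPM. Unlike Col3a1 it had the higher CPM in replicate 2, and the ranges of the 2 genes overlapped. Per kilobase Sparc had the highest mean level of the members, 824 CPM against 408 for Col3a1. Postn, a matricellular protein of growing connective tissue, had 39 and 28 reads (65.8 and 36.3 CPM). Fn1 (chr1:71585520-71653200), the fibronectin gene, had 41 and 20 reads (69.1 and 25.9 CPM), and Mgp (chr6:136872435-136875823), an inhibitor of calcification made by cartilage and vessel walls, had 15 and 50 (25.3 and 64.8 CPM). Mgp was thus the lowest of these 4 in replicate 1 and the second highest in replicate 2.

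The small leucine-rich proteoglycans gave 420 and 317 CPM. Dcn, which binds collagen fibrils, had 141 and 139 reads (238 and 180 CPM), Bgn had 64 and 67 (108 and 86.8 CPM), and Lum had 44 and 39 (74.2 and 50.5 CPM). Per kilobase the mean level of Dcn was 119 CPM, above Col4a1 at 105, although its CPM was lower in both libraries. Elastin (Eln) had 93 and 93 reads (157 and 120 CPM), and Fbn1, the scaffold of elastic microfibrils, had 27 and 14 (45.5 and 18.1 CPM). Timp3, which is held in the matrix, had 59 and 48 reads (99.5 and 62.2 CPM), and the secreted Timp2 had 48 and 51 (80.9 and 66.1 CPM).

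The 21 members with 20 reads in each library form 20 neighbouring pairs in the order by mean CPM. In 3 pairs both values of one gene lay above both of the other, Sparc above Col1a1, Col4a2 above Col1a2 and Dcn above Eln. In the other 17 pairs the ranges over the 2 libraries overlapped, which does not compare the genes within a library. Some of these pairs kept the same order in each library, such as Col1a1 above Col4a1 and Col1a2 above Col6a1. Others changed order, such as Col3a1 and Sparc.

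Between the libraries, 2 of 29 members with 10 or more reads summed passed the test (two-sided exact binomial test of the reads against library totals, Benjamini-Hochberg adjusted p below 0.05 over all genes, and at least 2-fold), against 3.88% of all 10567 genes tested. Fn1 was higher in replicate 1 by 2.67-fold (95% interval 1.53 to 4.81, adjusted p = 0.00551 by the exact binomial test), where 2.90% of all genes were called. Mgp was higher in replicate 2 by 2.56-fold (95% interval 1.41 to 4.91, adjusted p = 0.0175 by the exact binomial test), where 0.984% of all genes were called. No call held under edgeR's exact test with the spread of these 2 libraries as dispersion, by which 1.17% of all genes were called. With reads on annotated models alone only Mgp was called, against 3.40% of all genes. Fn1 is also a plasma protein made by the liver, and the liver list moved the same way, 8100 CPM in replicate 1 against 1304 in replicate 2. Mgp moved with the kidney list, 0 against 681 CPM, and with the capsule list, 89.4 against 140 CPM. The chondrocyte and bone list also lay higher in replicate 2, 3.37 against 80.3 CPM, where Bglap gave 2 and 58 of 2 and 62 reads. So did the tendon, fibroblast, fat, steroidogenic and chromaffin lists, while the liver, skeletal muscle, endothelial, and smooth muscle and pericyte lists lay lower. In the smooth muscle and pericyte list Des alone gave 269 and 80 of 378 and 253 reads. Of its 4 tested genes, 3 had the higher CPM in replicate 2. The part of these lists in either result was not tested.

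Most collagens had a lower CPM in replicate 2. A CPM above that of replicate 2 was found in replicate 1 for 25 of 29 members and 16 of 18 collagens, against 5507 of 10567 genes tested. The exceptions were Sparc, Mgp, Col13a1 and Col15a1. The median log2 ratio of replicate 2 over replicate 1 was -0.55 for the members (-0.51 with TMM totals) and -0.56 for the collagens, against -0.04 over all genes tested. Col3a1 was 1.49-fold higher in replicate 1 (1.39 to 1.61, adjusted p = 5.49e-26 by the exact binomial test) and Col4a1 was 1.59-fold higher (1.39 to 1.81, adjusted p = 2.36e-10). Col1a1, Col1a2, Col6a1, Col6a2 and Col5a1 also had an adjusted p below 0.05 and a ratio below 2-fold, so that 9 members passed with no fold minimum, against 7.40% of all genes. For Col12a1 (14 and 6 reads) and Col6a3 (14 and 7) the ratios were 3.04 and 2.60, with adjusted p of 0.178 and 0.274 by the exact binomial test. For Sparc the ratio of replicate 1 over replicate 2 was 0.926 (0.856 to 1.00, adjusted p = 0.308 by the exact binomial test). The steroidogenic list lay the other way, 17649 CPM in replicate 1 and 21731 in replicate 2, and skeletal muscle, a collagen-rich tissue, lay the same way as the collagens, 10800 and 3793 CPM, although its genes Myh4 (5 and 147 reads, called) and Pvalb (22 and 36) lay higher in replicate 2. The capsule list (89.4 and 140 CPM) lay higher in replicate 2, where Tcf21 gave 16 and 54 of its 53 and 108 reads. The fibroblast list had 167 and 187 CPM, with a 95% interval of the ratio of 0.859 to 1.46. Of its 8 tested genes, 5 had the higher CPM in replicate 2 and 3 in replicate 1, and Dpep1 alone gave 21 and 55 reads. The part of these lists in the difference was not tested. Taken as reads per steroidogenic read, 7 members were called, all higher in replicate 1 and without Mgp, against 6.44% of all genes, while the median log2 ratio of all genes moved to -0.34 and that of the members to -0.85.

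**Figure D3:**
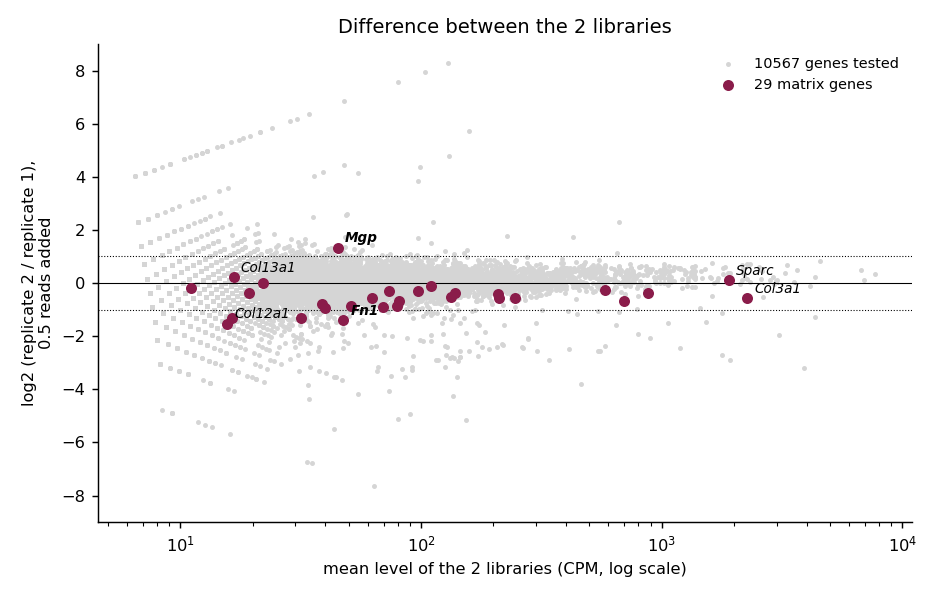
Log2 ratio of replicate 2 over replicate 1 with 0.5 reads added, against mean level in CPM on a log scale, for all 10567 genes tested (grey) and the 29 members (coloured). Most members lie below 0, and Mgp lies above it.

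Genes that make, bind or remove this matrix were taken as 7 lists. Over all 10567 genes tested 3.88% were called, and 5507 had the higher CPM in replicate 1. In collagen processing, all 28 genes had reads, 21 were tested and 1 was called (Mia3, 10 and 1 reads, higher in replicate 1), and 11 of 21 had the higher CPM in replicate 1. The collagen chaperone Serpinh1 had 330 and 398 reads, the prolyl hydroxylase subunit P4hb 297 and 353, and Pcolce, which speeds removal of the procollagen C-propeptide, 211 and 367. In CPM, Serpinh1 stood at 556 and 516. Among partners of the basement membrane, 9 of 10 tested genes had the higher CPM in replicate 1 and 1 was called (the laminin chain gene Lamb2, 72 and 44 reads). The laminin chain gene Lamb1 had 73 and 61 reads and the nidogen gene Nid2 had 47 and 41.

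The counts called in the remaining lists stand against the same 3.88% of all genes tested. Other proteoglycans had 0 of 6 tested genes called, led by Podn (38 and 76 reads), Prelp (27 and 41) and Aspn (20 and 22). Other elastic fibre genes had 1 of 12 called, Efemp2, a fibulin needed for elastic fibre assembly, with 108 and 49 reads, beside Ltbp4 (107 and 102) and Fbln2 (55 and 75). In the other matricellular genes 2 of 12 were called: Vtn, vitronectin of plasma, with 96 and 18 reads, and Spp1, osteopontin, with 5 and 195. Vtn moved with the liver list and Spp1 with the kidney and bone lists, and the part of those lists was not tested. Proteases and their other inhibitors had 0 of 9 called, led by Mmp14 (68 and 69 reads), Mmp2 (42 and 45) and Mmp15 (33 and 27), and the receptors had 0 of 15 called, led by Itgb1 (216 and 205), Sdc3 (79 and 96) and Itgb5 (63 and 73).

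A smaller share of reads was complete for the members than over all genes of the same libraries. Models identical in splicing to an annotated transcript (class Known) took 53.2% and 57.5% of the members' reads, against 71.0% and 75.6% over all annotated genes. Incomplete splice matches, models whose introns are a consecutive part of an annotated transcript's, took 35.0% and 31.5% against 13.5% and 11.8%. Most of these lacked the 5′ part, since matches to the 3′ end took 28.4% and 25.4% of the members' reads and matches to the 5′ end took 0.182% and 0.126%. Unannotated combinations of known splice sites took 1.25% and 1.69% of the members' reads, and models with an unannotated splice site took 4.11% and 3.52%.

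Over the 21 members with 20 reads in each library, the median share of reads that carried the first intron of the reference transcript (the longest annotated protein-coding one) was 41.3%, and for the last intron it was 87.6%. Over all 4658 genes of the same depth the medians were 80.2% and 92.2%. The short proteoglycan Lum was the most complete, with the first intron in 42 of 44 reads in replicate 1 and 38 of 39 in replicate 2, followed by Dcn with 124 of 141 and 124 of 139. Among the collagens Col3a1 was the most complete: 1258 of 1613 reads (78.0%) and 1180 of 1405 (84.0%) carried intron 1, and 1560 and 1361 carried intron 50, over a transcript of 5564 bases. Col1a1, of 5930 bases and equally many introns, had 61.9% and 58.3%.

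Col1a2 showed another pattern. Of its 173 and 154 reads, 156 and 144 carried the last intron, and 0 carried intron 1. Annotated intron 1 ends at the 11-base exon 2, which all 7 reads that crossed it skipped. The 0 therefore does not show how many reads reached exon 1, and an intron from near the end of exon 1 to exon 4 had 4 and 2 reads. A read that skips exon 2 cannot match Col1a2-201. The share fell from the 3′ to the 5′ end, and no Col1a2 read was of class Known in either library. Col4a2 had the first intron in 16.8% and 17.5% of its reads and Col4a1 in 35.7% and 39.7%. Intermediate shares were found for Col6a1 (56.4% and 58.0%), Col6a2 (39.3% and 53.5%), Sparc (39.8% and 42.8%) and Eln (37.6% and 37.6%). Low shares were found for Col5a3 (22.1% and 17.3%), Col5a1 (18.5% and 10.8%), Fn1 (19.5% and 35.0%) and Col14a1 (27.6% and 31.8%). The remaining members were Bgn (75.0% and 76.1%), Timp2 (64.6% and 78.4%), Postn (33.3% and 60.7%), Timp3 (40.7% and 47.9%), Col5a2 (25.8% and 38.1%) and Col18a1. No Col18a1 read carried the first intron of its reference transcript, and 45.2% and 45.9% carried the first intron of any of its annotated transcripts.

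**Figure D4:**
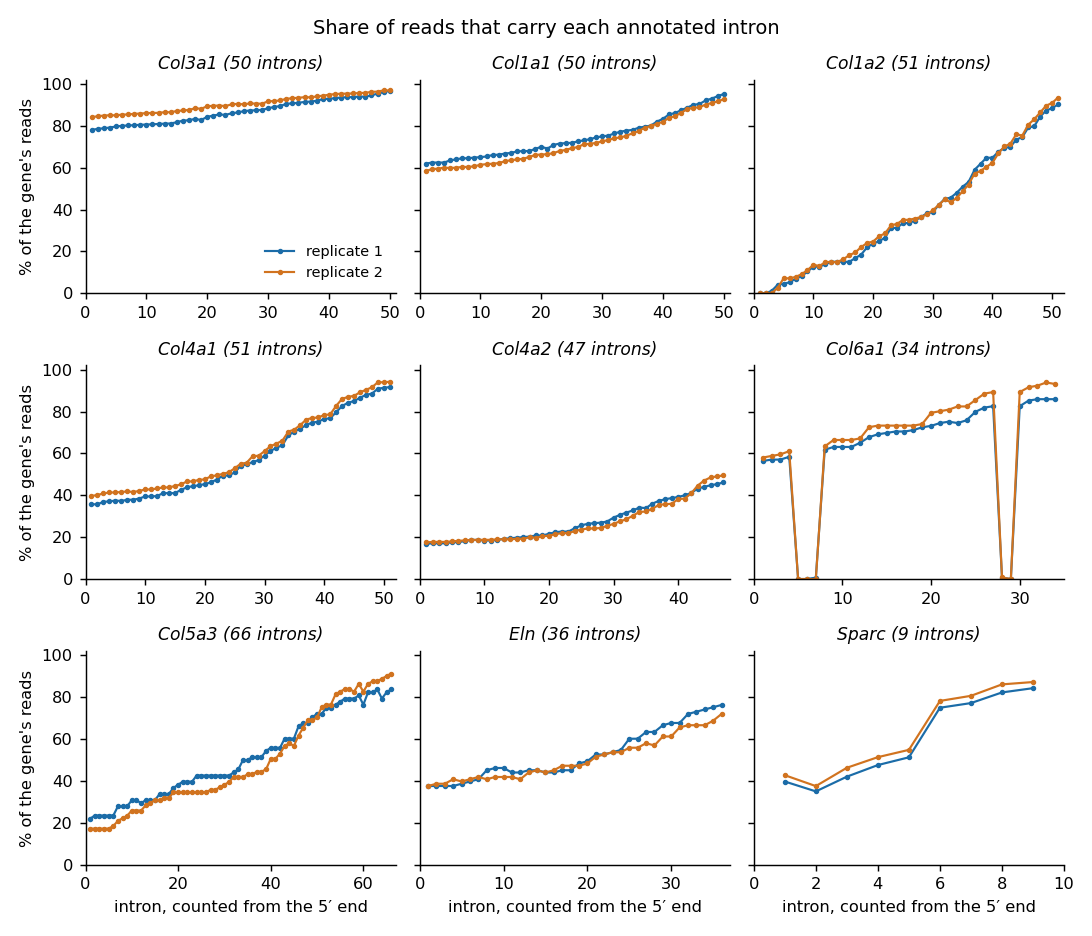
Share of a gene's reads that carry each annotated intron, in percent, counted from the 5′ end, for members with 1 line per library. Col3a1 stays near its 3′ level along its 50 introns, and Col1a2 falls to 0 at intron 1. That intron ends at the 11-base exon 2, which every read that crossed it skipped.

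Members with more introns had lower shares, as other genes did. The 13 members with 30 or more introns had a median first-intron share of 29.7%, against 23.5% for 85 other genes with as many. The 6 members with fewer than 10 introns had 73.5% against 83.5% for 2893 other genes, and the 2 with 10 to 29 introns had 46.7% against 75.9% for 1659. By transcript length, the 7 members of 6000 bases or more had 27.3% against 58.4% over all genes of that length. The 7 of 4000 to 6000 bases had 46.4% against 67.9%, and the 6 of 2000 to 4000 had 59.3% against 79.5%. The 1 shorter member had 88.6% against 86.5%. Across the 21 members the share was lower in longer transcripts, on the log2 scale of length (Pearson r = -0.66, Spearman rho = -0.66), and over all 4658 genes r was -0.21 and rho was -0.30. These are correlations across genes of the same libraries, which are not independent replicates. Within the 12 collagens r was -0.36 and rho was -0.27.

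**Figure D5:**
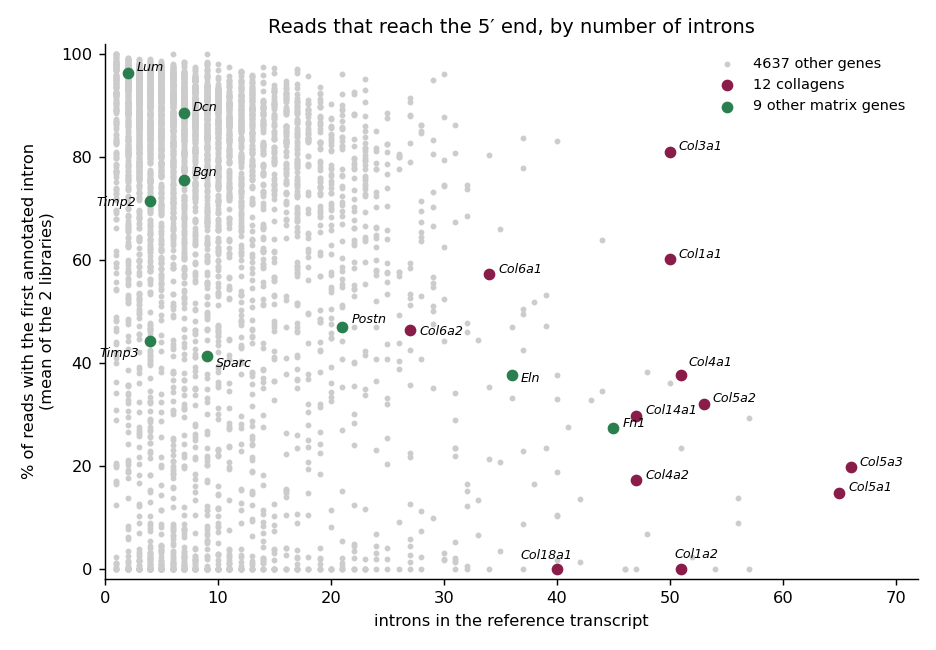
Share of reads with the first annotated intron (mean of the 2 libraries, percent) against the number of introns of the reference transcript, for 4637 other genes (grey), 12 collagens and 9 other members. Members with 30 or more introns spread between 0 and 81.0%, with Col3a1 at the top. Col1a2 and Col18a1 lie at 0 for the intron of the reference transcript, although some of their reads carried another intron from a first exon.

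Single-exon reads made up 202 of 375 and 204 of 406 reads of Col4a2 (53.9% and 50.2%), 33 of 59 and 24 of 48 of Timp3, and 166 of 1081 and 192 of 1519 of Sparc. Over the 21 members, 95.8% of 668 and 98.9% of 621 single-exon reads touched the last exon. In Fbn1 11 and 6 reads, in Fn1 6 and 2 and in Timp2 14 and 0 lay on models shorter than 50 bases. This leaves fewer reads of use behind those genes' levels. The 14 Timp2 reads, of 48, also stand in its higher CPM in replicate 1 and in the total of its first-intron share there.

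The share of reads on annotated models was called different between the libraries in 0 of 12 members tested (two-sided Fisher's exact test, at least 50 reads in each library, adjusted p below 0.05 and 10 points), against 1.31% of 2066 genes, and 1 had an unadjusted p below 0.05. That was Col3a1, with 75.3% in replicate 1 and 81.2% in replicate 2. Its adjusted p was 0.00924 by Fisher's exact test, so it passed that limit. With 5.88 points it missed the call only by the 10-point minimum. The main annotated transcript's share was called in 0 of 10 members, against 1.72% of 2146 genes, again with Col3a1 alone below 0.05 unadjusted. For Col3a1 both tests count the same reads, and its adjusted p here was 0.00883 by Fisher's exact test.

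Of the 49 members, 20 had reads on 1 annotated transcript, 8 on several and 21 on none. Col3a1-201 had 1215 and 1141 reads, Col1a1-201 had 345 and 332, Col4a1-201 had 173 and 158, and Col4a2-201 had 59 and 65. Dcn-201 had 123 and 123 reads, beside 8 and 10 on Dcn-202, which differs in its first exon. Bgn-201 had 48 and 50, Eln-201 had 29 and 32, and Col5a3-201 had 14 and 13.

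Sparc was spread over more models. Sparc-201 took 350 of 1081 reads in replicate 1 and 523 of 1519 in replicate 2 (32.4% and 34.4%). Sparc-205, annotated as a retained-intron transcript of 5 exons and 741 bases, took 254 and 353 reads (23.5% and 23.2%). All 4 of its introns are the last introns of Sparc-201, so a read cut short at the 5′ side of Sparc-201 has the same introns, and reads of the 2 models cannot be told apart by splicing. Sparc-202 took 65 and 101 reads, and Sparc-203, also a match to the 3′ end of Sparc-201, took 29 and 40.

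Col18a1 had several first exons in use. The intron that starts Col18a1-202 was carried by 22 of 93 reads in replicate 1 and 35 of 85 in replicate 2, the intron that starts Col18a1-203 by 20 and 4, and the one that starts the longest transcript, Col18a1-201, by 0 and 0. The difference between the libraries in this choice was not tested. Whole annotated transcripts gave Col18a1-202 in 16 and 21 reads and Col18a1-203 in 10 and 3.

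Unannotated spliced models of members numbered 307 in 29 genes with 585 reads. Only 33 were found in both libraries, 261 had 1 read, and the 10 with most reads held 231. By far the most abundant was a Col6a1 model of 32 exons, with 82 of 149 reads in replicate 1 and 72 of 131 in replicate 2 (55.0% in each). The reference transcript, Col6a1-201, has 35 exons, and no Col6a1 read was of class Known. The next were a Sparc model with 4 and 10 reads, a Col3a1 model with 10 and 3 and a Col18a1 model with 3 and 8. The other 6 of the top 10 belonged to Col3a1, Sparc, Col16a1 and Col18a1 and had 5 to 8 reads summed.

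The Col6a1 model differed from the annotation at 2 places, both at very short exons. At the first, an intron at chr10:76721043-76721402 was carried by 89 and 82 reads. It spans annotated exons 6 and 7 of 21 bases each, and its end lies 37 bases inside the annotated intron before exon 8, so that exon 8 of 45 bases is read as 82 bases. At the second, an intron at chr10:76712402-76713180 was carried by 121 and 116 reads and spans the 9-base exon 29, while exon 28 is read as 41 bases in place of 37. The other 28 internal exons matched the annotation. No read carried exon 6, 7 or 29 with both annotated ends. The annotated intron 28, which ends at exon 29, was in 1 and 1 reads, and intron 7, which begins at exon 7, was in 1 and 0. The annotated exon sequences are shown so that both places can be read, from the - strand in GENCODE M21, with exons 6 and 7, then exon 29, in capitals.
Col6a1 exons 5 to 9, chr10:76719647-76721432: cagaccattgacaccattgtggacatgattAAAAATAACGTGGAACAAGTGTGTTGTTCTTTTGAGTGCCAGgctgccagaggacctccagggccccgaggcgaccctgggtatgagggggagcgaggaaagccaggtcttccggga
Col6a1 exons 28 to 30, chr10:76712372-76713221: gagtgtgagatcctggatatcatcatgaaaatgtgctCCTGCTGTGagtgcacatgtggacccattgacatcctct
Exon 5 and exon 9 are shown only by the 30 bases nearest the place, as is exon 30.

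Other members had the same kind of exon. Col13a1 has an 8-base exon 3, which 7 and 10 informative reads skipped and none included; an intron at chr10:61911734-61961288 that runs from exon 2 to exon 4 had 6 and 8 reads. Col1a2 has exons 2 and 3 of 11 and 15 bases, which were skipped by all 7 and all 8 reads of both libraries that crossed them. An intron at chr6:4505914-4509603, with 4 and 2 reads, spans both and begins 4 bases beyond the end of exon 1. Capitals mark the short exons.
Col13a1 exons 2 to 4, chr10:61911710-61961312, - strand: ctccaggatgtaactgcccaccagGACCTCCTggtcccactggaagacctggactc
Col1a2 exons 1 to 4, chr6:4505880-4509633, + strand: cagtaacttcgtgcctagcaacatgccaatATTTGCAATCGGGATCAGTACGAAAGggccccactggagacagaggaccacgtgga
The flanking exons are again shown only in part.

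Exons of fewer than 12 bases were also skipped in other genes, while exons of 21 bases or more rarely were. Over all genes, 8 exons of fewer than 12 bases that are present in every annotated transcript had 20 informative reads, and 686 reads skipped them while 0 included them. Exon 29 of Col6a1 is 1 of these 8, with 237 of the 686 reads. Of 26 such exons of 12 to 20 bases, 13 were skipped by most reads. Of 1931 exons of 21 to 50 bases 10 were (0.518%), and 2 of those 10 are exons 6 and 7 of Col6a1. Of 44726 longer ones 8 were. Among the members, 3 of 624 exons were skipped by most reads, all in Col6a1.

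Of 50 annotated optional exons tested in 7 members, 0 were called different between the libraries, against 0.142% of 5640 exons over all genes (two-sided Fisher's exact test, 20 informative reads in each library), and 0 had an unadjusted p below 0.05. Most of these exons were in nearly all or in none of their reads in both libraries, so the test says little about exons in variable use. Neighbouring exons of a gene also share reads. Inclusion was 91.1% to 98.0% in replicate 1 and 97.6% to 100% in replicate 2 for the optional exons of Eln. A 64-base exon of Bgn was in 0 of 48 and 0 of 51 reads. Postn, whose C-terminal exons are known to be chosen in many combinations, included an 84-base exon in 3 of 24 and 7 of 27 reads and the 78-base exon 20 in 21 of 23 and 26 of 26. Its exon 17 (81 bases), with fewer informative reads, was in 17 of 41 reads of both libraries together (41.5%, exact 95% interval 26.3% to 57.9%).

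Fibronectin's extra domains were mostly skipped. Exon 25 (273 bases, chr1:71613763-71614035), which encodes the EIIIB domain, was in 6 of 24 reads of both libraries together (25.0%, exact 95% interval 9.77% to 46.7%), in 2 of 13 reads of replicate 1 and 4 of 11 of replicate 2. Exon 33 (270 bases, chr1:71603660-71603929), which encodes the EIIIA domain, was in 6 of 31 (19.4%, 7.45% to 37.5%), in 3 of 20 and 3 of 11. These domains are known to be kept in embryonic and healing tissue and left out of the plasma protein made by the liver; the liver list was higher in replicate 1, and its part in these shares was not tested. In Col13a1, 5 optional exons ranged from 4.76% (1 of 21 reads) to 73.7% (14 of 19 reads), and a 45-base exon was in 21 of 21, over both libraries together.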

How the data were processed

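The authors deposited raw read counts for the transcript models of each library, not normalized, with a matching annotation file of model coordinates. Per the labels the assembly is mm10, and per the file headers and notes the annotation is GENCODE M21 and the models were built with TALON. Platform and aligner were not given in the sources used here. Classes of models were used as deposited. Reads were summed per gene, ERCC reads (2.24% and 2.11%) were left out, and CPM, completeness, introns and exons were computed with Python 3.11.15, pandas 2.3.3 and scipy 1.17.1, and an alternative with R 4.3.3 and edgeR 4.0.16. Tests were tested on simulated data. Members and gene lists were chosen with earlier results of these data known. Named were all members by role, members with 20 reads in each library, the main transcript of those with 50, the 10 leading unannotated models, optional exons with 20 informative reads, and the 3 most abundant genes of each pathway list. Genes, exons and models outside this rule (members with fewer reads, called list genes, low-coverage exons) were chosen after their values were seen. Sequences were read from GENCODE M21 transcripts. One sequence and the result that needs it are not reported here.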

Additional observations from a re-analysis of the deposited data

Results flagged for a closer look

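Some reads lay antisense to a member and so entered no gene's count. Those above the limit that a count of 0 allows (3 counts) in both libraries were on 4 loci. Col1a1 had 25 antisense reads in replicate 1 and 26 in replicate 2, all of single-exon models (the leading model lies in the gene's last exon, at chr11:94952334-94953042 in replicate 1 and chr11:94952710-94953042 in replicate 2). Sparc had 12 and 7, Col4a1 had 11 and 7, and Col1a2 had 7 and 4. Antisense reads were found at 24 member loci, with 86 reads in replicate 1 and 67 in replicate 2.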

How the results depend on the processing

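The summed level of the members, 8239 CPM, was 4538 with reads on annotated models alone and 2134 as CPM per kilobase, and 7207 to 9271 when either library was left out. Of 2 calls between the libraries, 0 held under edgeR's exact test with a common dispersion (biological coefficient of variation 0.251), where 2 members had an unadjusted p below 0.05 and 124 genes were called in all. Reads of the steroidogenic list as totals gave 7 calls (6.44% of all genes called), no minimum fold gave 9 (7.40%) and annotated models alone gave 1 (Mgp; 3.40%). The count was 2 with TMM totals, with no read minimum, with spliced models alone and, added after seeing the data, with totals without the kidney, liver, muscle and bone lists. With spliced models alone the median share on annotated models rose from 36.1% to 48.3%, that with the first intron from 41.3% to 52.5% and the share of introns per read from 59.5% to 70.5%, since single-exon reads leave the total. With either library left out these medians ranged from 34.1% to 38.1%, 37.6% to 42.8% and 56.8% to 61.9%. Taking the first intron of any annotated transcript, also added after seeing the data, gave 44.3%. The cause of the other changes was not tested. Leaving out a library leaves no test between libraries. No paired analysis was possible because there is 1 group. Genes with under 20 reads a library, 28 of 49 members, are limited by depth.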
